A study of Mus musculus with 12 samples.

Results

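The interferon regulatory factors (IRFs) were followed in mouse peritoneal macrophages with and without the scavenger receptor CD36, in control medium and under oxidized low-density lipoprotein (oxLDL). The 8 family members described, Irf1, Irf2, Irf3, Irf4, Irf5, Irf7, Irf8 and Irf9, were chosen by symbol out of 43346 genes of the count table, and all 8 passed the filter on low counts that left 16281 genes tested. The 12 total RNA libraries came from cells of C57BL/6 mice cultured in RPMI1640 with serum, with 3 libraries in each group: CD36 knockout (CD36 KO) cells with oxLDL at 20 µg/ml for 8 h, CD36 KO cells in medium, wild-type (WT) cells with the same oxLDL dose and time, and WT cells in medium. Uptake of oxLDL, for which CD36 serves as a receptor, turns macrophages into the lipid-laden foam cells of atherosclerotic plaques. The labels do not say whether the 3 libraries of a group came from separate animals, which stretch of Cd36 was deleted, how the peritoneal cells were enriched or what age the mice had. Every p-value therefore measures the spread between these libraries, which may be technical, and genotype cannot be told apart from differences between the mice or preparations.

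IRFs are transcription factors that share a DNA-binding domain and recognise repeats of the letters GAAA, the interferon-stimulated response element (ISRE). IRF3 and IRF7 lie latent in the cytoplasm until kinases downstream of nucleic acid sensors and Toll-like receptors phosphorylate them, and they then switch on type I interferon genes. IRF9 is the DNA-binding part of ISGF3, the complex that carries the signal from the type I interferon receptor to its target genes. IRF1 is itself induced by interferon-gamma and IRF2 is known as its antagonist at shared sites. IRF8 and IRF4 bind DNA poorly alone and act with partners such as PU.1, IRF8 in monocyte and macrophage development and IRF4 in B cells and in alternative activation. IRF5 acts downstream of the adaptor MyD88 on inflammatory cytokine genes. The libraries measure their messenger RNA, not phosphorylation or protein.

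The genes lie on 6 chromosomes in mm10 (GENCODE M21 coordinates). Irf7 is at chr7:141262706-141266481 on the minus strand, and the other members are on the plus strand: Irf1 at chr11:53770014-53778374, Irf2 at chr8:46739732-46847458, Irf3 at chr7:44997648-45002848, Irf4 at chr13:30749226-30766976, Irf5 at chr6:29526625-29541871, Irf8 at chr8:120736358-120756694 and Irf9 at chr14:55603571-55610030. RefSeq promoter windows (GRCm38.p6, 250 bases before to 50 after the start site) were found for 8 members, 11 windows in all. Both strands were searched for 3 motifs: the ISRE core (GAAA, any 2 bases, GAAA), the interferon-gamma activated site (GAS, TTC, any 3 bases, GAA) bound by STAT dimers, and an NF-kB site (GGG, any 2 bases, TTTCC). The ISRE core was found in 1 member, Irf2, against 3.99% of 27025 genes with a window. GAS was found in 3 members, Irf1, Irf2 and Irf8, against 9.55% of genes, and the NF-kB letters in 1, Irf2, against 1.89%. The other 5 members held none of these letters in their windows, and no match overlapped another. The 250 bases before the start site follow for the members with a match and, for comparison, for Irf7 and Irf4, the members that oxLDL raised and lowered most. They run 5′ to 3′ on the gene's strand, with matches in capitals.
Irf1 (chr11:53769764-53770013, plus strand, GAS at -90): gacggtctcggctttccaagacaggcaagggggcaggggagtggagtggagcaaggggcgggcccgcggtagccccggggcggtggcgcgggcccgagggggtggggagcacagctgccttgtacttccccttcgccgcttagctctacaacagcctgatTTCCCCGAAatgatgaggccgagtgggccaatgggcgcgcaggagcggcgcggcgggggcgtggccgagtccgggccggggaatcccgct
Irf2 (chr8:46739495-46739744, plus strand, ISRE core at -241, GAS at -224, NF-kB site at -17): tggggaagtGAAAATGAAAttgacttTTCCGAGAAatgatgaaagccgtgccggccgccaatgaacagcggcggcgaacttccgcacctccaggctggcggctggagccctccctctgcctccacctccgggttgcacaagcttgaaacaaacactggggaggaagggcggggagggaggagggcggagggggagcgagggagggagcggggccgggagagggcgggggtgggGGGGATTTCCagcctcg
Irf8 (chr8:120736108-120736357, plus strand, GAS at -171 and -153): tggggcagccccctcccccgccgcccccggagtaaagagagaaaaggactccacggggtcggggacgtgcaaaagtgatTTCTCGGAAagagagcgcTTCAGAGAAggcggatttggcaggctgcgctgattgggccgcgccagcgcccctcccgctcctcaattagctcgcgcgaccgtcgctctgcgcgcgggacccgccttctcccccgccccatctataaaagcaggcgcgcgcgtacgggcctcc
Irf7 (chr7:141266425-141266674, minus strand, no match): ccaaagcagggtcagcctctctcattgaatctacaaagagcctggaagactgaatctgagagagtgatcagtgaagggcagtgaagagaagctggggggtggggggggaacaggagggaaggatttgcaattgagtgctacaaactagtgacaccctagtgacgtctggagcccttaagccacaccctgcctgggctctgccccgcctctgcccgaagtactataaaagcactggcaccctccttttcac
Irf4 (chr13:30748983-30749232, plus strand, no match): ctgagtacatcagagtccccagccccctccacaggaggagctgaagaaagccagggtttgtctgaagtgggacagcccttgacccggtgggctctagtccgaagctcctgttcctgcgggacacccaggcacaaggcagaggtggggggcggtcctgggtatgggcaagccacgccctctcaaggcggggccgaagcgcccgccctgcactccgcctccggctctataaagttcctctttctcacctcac
A match is a run of letters, not a binding site shown in these cells, and the lack of one says only that these letters are not in this window. Variants of the motifs with other letters were not searched, and a window without a match may hold one.

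Library totals were 35257762 to 65135955 counts. Cd36 itself, the check of the genotype labels, was lower in CD36 KO than in WT by a log2 fold change of -3.96 ± 0.23 (SE) under oxLDL and -3.48 ± 0.23 in medium, with edgeR adjusted p of 5.41e-06 and 1.73e-05. One library stood apart: WT oxLDL replicate 1 correlated at 0.952 to 0.953 with the others of its group and had the lowest scaling factor (0.729), and its long genes were weaker relative to short ones (a log2 gap of 1.48, against 2.31 to 2.95 elsewhere). CD36 KO oxLDL replicate 3 had the next smallest gap (2.31). It correlated at 0.988 to 0.989 with the others of its group, which correlated at 0.994 with each other. Responses and differences that moved most without WT oxLDL replicate 1 are also given without that library. Of the macrophage markers, 9 of 10 were in the table, with sums of 14800 to 19000 CPM (counts relative to library size) under oxLDL in CD36 KO and 15200 to 16900 CPM in CD36 KO medium, against 18500 to 33500 CPM under oxLDL in WT (at most 18700 CPM without replicate 1) and 15400 to 15800 CPM in WT medium. Lysozyme (Lyz2) made up most of each sum, and single markers moved apart. Of the 9, 1 was higher and 3 lower in CD36 KO than in WT under oxLDL by edgeR (11.7% and 9.86% of all genes). In medium 2 were higher and 1 lower (8.78% and 2.42% of all genes). Csf1r averaged 604 CPM in CD36 KO medium and 861 CPM in WT medium, and Gata6 25.7 and 12.6 CPM. In bulk libraries fewer cells of a type and less RNA per cell cannot be told apart.

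Irf1, Irf7 and Irf9 rose and Irf4 fell under oxLDL in both genotypes. In CD36 KO cells 4 of the 8 members changed, 3 higher (Irf1, Irf7, Irf9) and 1 lower (Irf4), where 27.4% of all genes tested did, 11.6% higher and 15.7% lower. In WT cells 5 of 8 changed, 4 higher (Irf1, Irf7, Irf8, Irf9) and 1 lower (Irf4), where 36.7% of all genes did, 18.1% higher and 18.6% lower. The WT split over all genes depended on the scaling: 2946 higher and 3034 lower with the TMM scaling used here, 2265 and 3845 with upper-quartile scaling, 3576 and 3181 with DESeq2, and 3952 and 2964 with the gene-length trend removed. The median log2 fold change of the 8 members was 0.26 in CD36 KO, where that of all genes was -0.08, and 0.72 in WT, where that of all genes was -0.01. The 2 responses share no libraries, and a gene that passed in 1 and not in the other is not shown to differ between them. Levels below are TMM-scaled CPM, the counts of a gene relative to the library size after scaling for composition, and adjusted p-values come from edgeR's quasi-likelihood test with Benjamini-Hochberg adjustment over all 16281 genes.

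**Figure D1:**
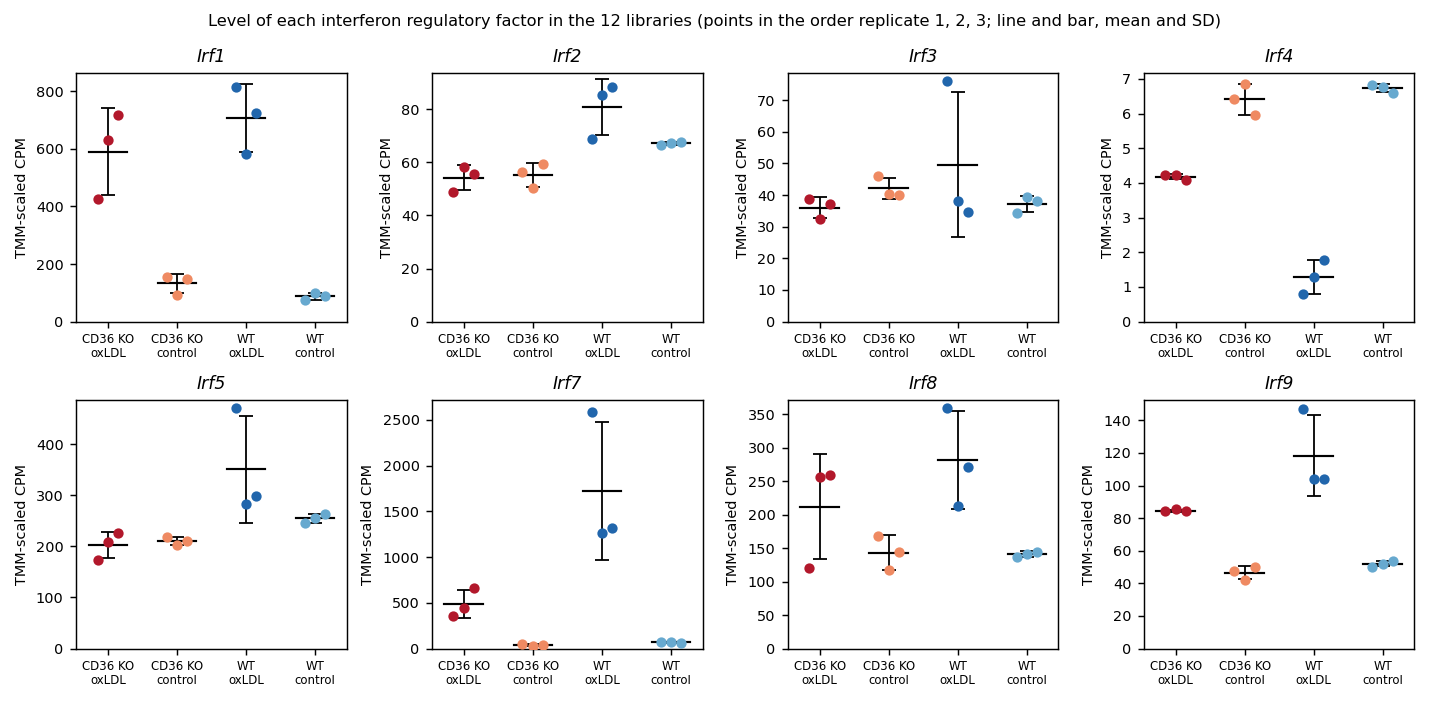
Level of each of the 8 members (TMM-scaled CPM, linear axis from 0) in the 12 libraries. Points are libraries, the line is the mean and the bar the SD of 3 libraries. Irf7 and Irf1 were high in all 6 oxLDL libraries, Irf4 was lowest in the 3 WT oxLDL libraries at 0.806 to 1.77 CPM, and WT oxLDL replicate 1 was the highest library for Irf1, Irf3, Irf5, Irf7, Irf8 and Irf9.

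Irf7, which amplifies type I interferon production once interferon signalling has begun, changed most. It stood at 358, 446 and 660 CPM in the CD36 KO oxLDL libraries, against 47.4, 31.0 and 41.2 CPM in CD36 KO medium. In WT it reached 2588, 1263 and 1316 CPM under oxLDL, against 68.1, 70.7 and 62.4 CPM in medium. Every oxLDL library lay above every medium library, and every WT oxLDL library lay above every CD36 KO oxLDL library. The rise was 12.2-fold in CD36 KO (log2 3.61 ± 0.33, adjusted p = 8.11e-06) and 25.7-fold in WT (log2 4.68 ± 0.34, adjusted p = 1.05e-06). Without WT oxLDL replicate 1 the WT value was a log2 of 4.28. Under oxLDL, Irf7 was lower in CD36 KO than in WT, at 0.283 of the WT level (log2 -1.82 ± 0.30, adjusted p = 0.002; log2 -1.42 without that library). In medium the 3 CD36 KO libraries were also all below the 3 WT ones, with a log2 of -0.75 ± 0.30 that did not pass the test (adjusted p = 0.149). The difference between the 2 responses was -1.07 ± 0.42 on the log2 scale, with a 95% interval of -1.99 to -0.15 and an adjusted p of 0.372, so a smaller rise in CD36 KO was not established after adjustment. It was -0.66 without WT oxLDL replicate 1 (adjusted p = 0.221).

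Irf3, the factor that starts the first wave of interferon-beta and is controlled mainly by phosphorylation, passed the test in no comparison. Its values were 38.7, 32.4 and 37.1 CPM under oxLDL and 46.0, 40.4 and 39.9 CPM in medium in CD36 KO. In WT they were 76.1, 38.2 and 34.6 CPM under oxLDL and 34.4, 39.3 and 38.2 CPM in medium. The high WT value was replicate 1, the library that stood apart. The log2 change was -0.22 ± 0.25 in CD36 KO (adjusted p = 0.566, 95% interval -0.77 to 0.32) and 0.41 ± 0.25 in WT (adjusted p = 0.219), and the WT value was -0.02 without that library.

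Irf9, the DNA-binding subunit of ISGF3, rose in both genotypes. CD36 KO cells had 84.1, 85.3 and 84.4 CPM under oxLDL, against 47.3, 42.3 and 49.9 CPM in medium. WT cells had 147, 104 and 104 CPM under oxLDL, against 50.3, 52.1 and 53.8 CPM in medium. No oxLDL library overlapped a medium library. The log2 change was 0.86 ± 0.14 in CD36 KO (adjusted p = 0.000833) and 1.18 ± 0.14 in WT (adjusted p = 5.89e-05), and the WT value was 1.01 without WT oxLDL replicate 1. With TMM scaling all CD36 KO oxLDL libraries were below all WT oxLDL libraries. In the authors' deposited RPKM (level per gene length) they overlapped, at 15.1 to 17 in CD36 KO and 16.2 to 19.9 in WT. The genotype difference under oxLDL was a log2 of -0.48 ± 0.14 (adjusted p = 0.0322), and -0.31 without WT oxLDL replicate 1 (adjusted p = 0.00614). That call was lost without WT medium replicate 2 or any 1 of the 3 CD36 KO oxLDL replicates (adjusted p up to 0.1), with upper-quartile scaling (log2 -0.38, adjusted p = 0.126), without the filter on low counts (adjusted p = 0.0525) and with only the groups compared in the fit (adjusted p = 0.222).

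Irf1, an activator that interferon-gamma and NF-kB switch on directly, was the second strong riser. Its level was 424, 632 and 716 CPM in CD36 KO under oxLDL, against 156, 94.0 and 148 CPM in CD36 KO medium. WT libraries had 816, 581 and 723 CPM under oxLDL, against 76.1, 99.3 and 88.4 CPM in medium. The oxLDL libraries of the genotypes overlapped, while oxLDL and medium did not. The rise was 4.46-fold in CD36 KO (log2 2.16 ± 0.24, adjusted p = 4.84e-05) and 8.04-fold in WT (log2 3.01 ± 0.25, adjusted p = 3.06e-06). The genotype difference was a log2 of -0.26 ± 0.23 under oxLDL (adjusted p = 0.464; -0.07 and 0.897 without CD36 KO oxLDL replicate 1) and 0.59 ± 0.24 in medium (adjusted p = 0.15). The difference between the responses was -0.85 ± 0.33, with a 95% interval of -1.58 to -0.12 and an adjusted p of 0.37. In the oxLDL libraries Irf7 was lower in CD36 KO by a test. The Irf1 interval of -0.77 to 0.26 holds values on both sides of 0. The 2 genes were not tested against each other.

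Irf2, the antagonist of IRF1, was lower in CD36 KO under oxLDL and did not pass the test for an oxLDL response in either genotype. CD36 KO libraries had 49.0, 58.4 and 55.4 CPM under oxLDL and 56.2, 50.4 and 59.4 CPM in medium. WT libraries had 68.6, 85.3 and 88.5 CPM under oxLDL and 66.7, 67.3 and 67.8 CPM in medium. With this scaling all 6 CD36 KO values lay below all 6 WT values. In the authors' deposited RPKM they overlapped. There CD36 KO libraries ran from 21.4 to 24.2 under oxLDL and from 24 to 26.9 in medium. WT libraries ran from 20.1 to 29.8 under oxLDL and from 28 to 28.5 in medium. Under oxLDL the genotype difference passed the test (log2 -0.57 ± 0.13, adjusted p = 0.0092, and 0.115 with only the groups compared in the fit), and in medium it did not (log2 -0.28 ± 0.13, adjusted p = 0.221). The response to oxLDL was -0.03 ± 0.13 in CD36 KO (adjusted p = 0.902) and 0.27 ± 0.13 in WT (adjusted p = 0.13). Without WT oxLDL replicate 1 the WT rise passed the test (log2 0.39, adjusted p = 0.00302), and so did the difference in medium (log2 -0.28, adjusted p = 0.0197).

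Irf8, the partner of PU.1 that macrophages need for their development, rose in WT. Its values were 121, 257 and 259 CPM under oxLDL and 169, 117 and 145 CPM in medium in CD36 KO. In WT they were 359, 213 and 271 CPM under oxLDL and 137, 142 and 145 CPM in medium. In CD36 KO the low value was oxLDL replicate 1, which lay among the medium libraries. The CD36 KO change was 0.56 ± 0.28 (adjusted p = 0.163), and without that library 0.85 (adjusted p = 0.0157). The WT groups did not overlap and the log2 change was 0.99 ± 0.28 (adjusted p = 0.0157), with an adjusted p of 0.0536 when WT medium replicate 1 was left out and a value of 0.79 (adjusted p = 0.0247) without WT oxLDL replicate 1. The difference between the responses was -0.43 ± 0.39, with a 95% interval of -1.28 to 0.43, and -0.15 (adjusted p = 0.977) without CD36 KO oxLDL replicate 1, so the genotypes were not shown to differ in Irf8.

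Irf4, the IRF of alternative activation in macrophages and of antigen-driven B cells, was the least abundant member per length and the 1 member that oxLDL lowered. CD36 KO libraries held 4.22, 4.24 and 4.09 CPM under oxLDL (214, 157 and 164 counts), against 6.41, 6.86 and 5.95 CPM in medium (273, 286 and 256 counts). WT libraries held 0.806, 1.30 and 1.77 CPM under oxLDL (24, 73 and 64 counts), against 6.83, 6.76 and 6.61 CPM in medium (322, 292 and 268 counts). The 4 groups fell into 3 levels: both medium groups together at the top, CD36 KO oxLDL between, and WT oxLDL lowest. Irf4 fell by 0.61 ± 0.20 on the log2 scale in CD36 KO (adjusted p = 0.0398) and by 2.37 ± 0.22 in WT (adjusted p = 6.05e-06). Under oxLDL it was 3.21-fold higher in CD36 KO than in WT (log2 1.68 ± 0.22, adjusted p = 0.000525), whereas in medium the difference was -0.07 ± 0.20, with a 95% interval of -0.50 to 0.36. The difference between the responses was 1.75 ± 0.29 (95% interval 1.12 to 2.39, adjusted p = 0.0209). It was the 1 difference between responses that passed among the 8 members, where 0.669% of all genes passed, 0.233% in the higher direction. The estimate moved between 1.53 and 2.03 when single libraries were left out, but its adjusted p moved between 0.000547 and 0.0944 and passed in 3 of 12 such fits, those without WT oxLDL replicate 1, WT oxLDL replicate 3 or CD36 KO oxLDL replicate 3. The small fall in CD36 KO likewise passed in 3 of 12, those without a WT oxLDL replicate, and missed the threshold under DESeq2's size factors in edgeR (log2 -0.55, adjusted p = 0.059).

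B cells also express Irf4, so B cell markers were set beside it. Of 8 markers, 7 were higher in CD36 KO than in WT under oxLDL and 6 in medium. Over all genes 11.7% were higher in CD36 KO under oxLDL and 8.78% in medium. Ms4a1, which encodes CD20, averaged 4.81 ± 0.999 CPM in CD36 KO oxLDL and 5 ± 0.3 CPM in CD36 KO medium, against 0.927 ± 0.308 CPM in WT oxLDL and 0.852 ± 0.122 CPM in WT medium (SD, n = 3 each). The summed level of the 8 markers was 60.6 to 64.5 CPM in CD36 KO oxLDL and 91.1 to 98.2 CPM in CD36 KO medium, against 39.5 to 46.8 CPM in WT oxLDL and 80.3 to 83.9 CPM in WT medium, most of it Cd22. Ms4a1 was higher in CD36 KO in both media by the test, and Irf4 differed under oxLDL with a medium interval that spans 0. No marker was at 0 in every library of a group. The part of B cell RNA in the Irf4 result was not tested. Mesothelial and fibroblast markers summed to 1680 to 2070 CPM in CD36 KO oxLDL and 1810 to 3170 CPM in CD36 KO medium, against 613 to 835 CPM in WT oxLDL and 710 to 1200 CPM in WT medium, and 4 of 8 were higher in CD36 KO under oxLDL and 3 in medium. The collagens Col1a1, Col1a2 and Col3a1 made up most of each sum. Of the mesothelial genes, the mean of Upk3b was higher in CD36 KO in both media and that of Krt19 lower. The part of mesothelial or fibroblast RNA cannot be read from these sums alone. The part of these cells in the genotype differences of the IRFs was not tested either. Markers of 3 other cell types had lower sums, most of which were higher under oxLDL. Neutrophil markers summed to 15 to 25.4 CPM in CD36 KO oxLDL and 6.76 to 7.28 CPM in CD36 KO medium, against 26.9 to 59.8 CPM in WT oxLDL and 7.8 to 9.02 CPM in WT medium. Most of each neutrophil sum was S100a8. Of the 5 neutrophil markers tested, 2 rose and 1 fell in CD36 KO, and 2 rose and 2 fell in WT. Dendritic cell markers summed to 10.3 to 11.3 CPM in CD36 KO oxLDL and 8.46 to 9.16 CPM in CD36 KO medium, against 8.48 to 11.7 CPM in WT oxLDL and 3.87 to 5.03 CPM in WT medium. Of the 6 dendritic cell markers tested, 2 rose and 1 fell in CD36 KO, and 3 rose and 0 fell in WT. Ccr7 carried much of the rise in the sums, while the mean of Clec9a was lower under oxLDL in both genotypes. T and NK cell markers summed to 2.19 to 3.99 CPM in CD36 KO oxLDL and 1.68 to 2.19 CPM in CD36 KO medium, against 3.12 to 5.97 CPM in WT oxLDL and 1.43 to 1.63 CPM in WT medium. Lck made up most of the T and NK cell sums under oxLDL. Of the 3 T and NK cell markers tested, 1 rose and 1 fell in each genotype. The part of these cells in the IRF results was not tested.

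Irf5, the MyD88-linked driver of inflammatory cytokine genes, was the most abundant member per length in medium and lower in CD36 KO under oxLDL. CD36 KO libraries had 174, 208 and 226 CPM under oxLDL and 219, 202 and 211 CPM in medium. WT libraries had 471, 282 and 299 CPM under oxLDL and 246, 256 and 263 CPM in medium. In each medium every CD36 KO library lay below every WT library. The genotype difference was -0.79 ± 0.18 under oxLDL (adjusted p = 0.0104, 0.0521 without CD36 KO oxLDL replicate 1 and 0.121 with only the groups compared in the fit). Without WT oxLDL replicate 1 it was smaller, at -0.54, but passed the test (adjusted p = 0.00116). In medium it was -0.28 ± 0.18 (adjusted p = 0.44). The response to oxLDL was -0.05 ± 0.18 in CD36 KO (95% interval -0.45 to 0.34) and 0.46 ± 0.18 in WT, which missed the threshold (adjusted p = 0.0685) and was 0.21 without WT oxLDL replicate 1.

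**Figure D2:**
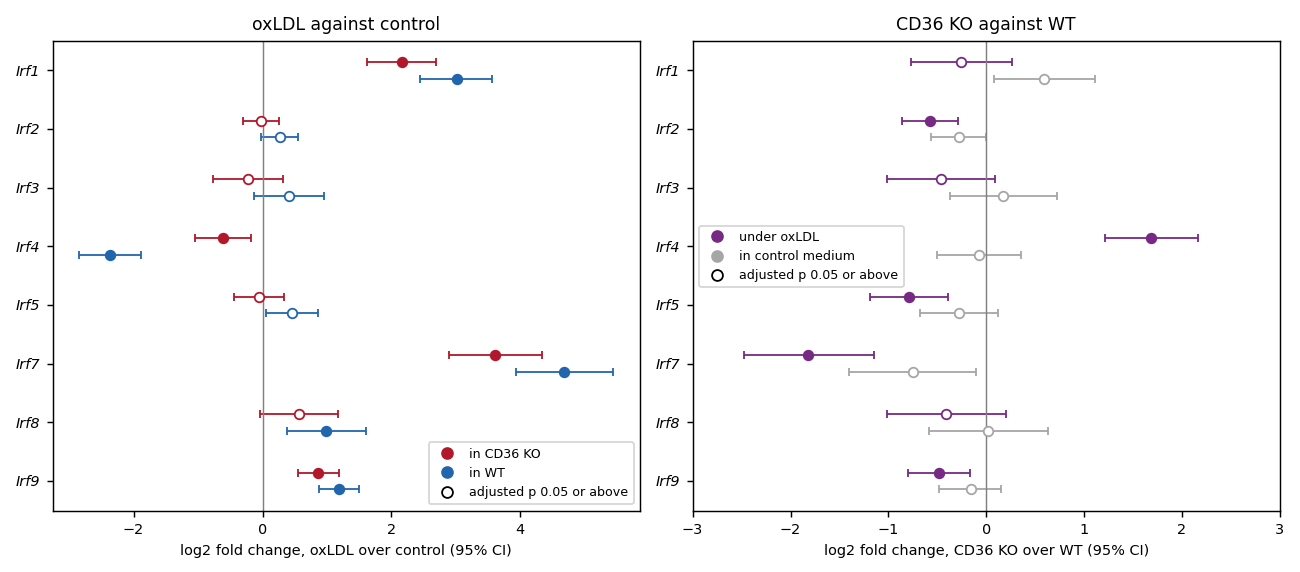
Log2 fold changes of the 8 members with 95% intervals from the edgeR fit (filled, adjusted p under 0.05). The left panel shows oxLDL over control in CD36 KO and WT, and the right panel CD36 KO over WT under oxLDL and in control medium. Irf7 and Irf1 lie farthest right on the left panel, and on the right panel Irf4 under oxLDL lies at 1.68 while Irf7 lies at -1.82.

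Between genotypes, under oxLDL 5 of the 8 members passed, Irf4 higher in CD36 KO and Irf2, Irf5, Irf7 and Irf9 lower, against 21.6% of all genes, 11.7% higher and 9.86% lower. Over all genes 1906 were higher and 1606 lower. That split also depended on the setting, with 2391 higher and 969 lower under upper-quartile scaling, 2165 and 2463 with DESeq2, 2058 and 2976 with the gene-length trend removed, 859 and 332 with only the groups compared, and 2686 and 3519 without WT oxLDL replicate 1. In medium 0 of 8 passed by edgeR, DESeq2 or limma-voom, where 11.2% of all genes passed by edgeR, 8.78% higher and 2.42% lower, and 2 members, Irf1 and Irf7, had an unadjusted p under 0.05. All 3 fits took the spread from all 12 libraries, so these medium p-values also carry the spread of the oxLDL libraries. Without WT oxLDL replicate 1 the members called in medium were 3 (Irf2, Irf5 and Irf7, all lower in CD36 KO) and those called under oxLDL 5. The medium log2 values of Irf2, Irf5 and Irf7 were -0.28, -0.28 and -0.75 both with and without that library. With only the groups compared in the fit the counts were 3 in medium and 2 under oxLDL, and without CD36 KO oxLDL replicate 1 the count under oxLDL was 3. These comparisons use the same oxLDL and medium libraries as the responses above. For the members other than Irf4 a change of the genotype difference with oxLDL was not established, with adjusted p of 0.37 or above.

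The authors' deposited tables, which compare 2 groups at a time, list all 8 members. For CD36 KO against WT under oxLDL the authors' deposited table has 2 members with a false discovery rate under 0.05, Irf4 with a log2 fold change of 1.77 (4.07e-05) and Irf7 with -1.74 (4.2e-05). In medium the authors' deposited table has 5 members under that rate, Irf1 and Irf3 higher in CD36 KO and Irf2, Irf5 and Irf7 lower, with Irf7 at -0.72 (2.36e-08). For the oxLDL responses the authors' deposited tables have 5 members each, in CD36 KO Irf8 beside the 4 called here and in WT the 5 called here.

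Levels of different genes can be set against each other only per gene length, so the order of the members was taken from TMM-scaled RPKM, the CPM divided by the gene length of the table in kilobases. In medium Irf5 led in both genotypes, at 72.5 ± 2.9 RPKM in CD36 KO and 87.8 ± 3.1 RPKM in WT (SD, n = 3 each), and Irf4 was last at 1.36 ± 0.10 RPKM in CD36 KO and 1.43 ± 0.02 RPKM in WT. Under oxLDL Irf7 moved to the top, at 162 ± 51 RPKM in CD36 KO and 570 ± 248 RPKM in WT. Its share of the summed level of the 8 members was 35.2% in CD36 KO oxLDL and 7.14% in CD36 KO medium, against 58.2% in WT oxLDL and 11% in WT medium. In CD36 KO oxLDL Irf7 and Irf1 (149 RPKM) overlapped, and then came Irf5 (69.8 RPKM), Irf8 (30.1 RPKM) overlapping Irf2 (21.8 RPKM), Irf9 (15.7 RPKM), Irf3 (11.3 RPKM) and Irf4 (0.887 RPKM). In CD36 KO medium Irf1 (33.3 RPKM), Irf2 (22.3 RPKM) and Irf8 (20.3 RPKM) followed Irf5 with overlapping neighbours, then Irf3 and Irf7 (13.2 RPKM each) and Irf9 (8.63 RPKM). In WT oxLDL Irf1 (178 RPKM) and Irf5 (121 RPKM) overlapped behind Irf7, followed by Irf8 (39.9 RPKM) overlapping Irf2 (32.5 RPKM), Irf9 (22 RPKM) overlapping Irf3 (15.6 RPKM), and Irf4 (0.274 RPKM). In WT medium Irf2 (27.1 RPKM) came second, Irf1 (22.1 RPKM) overlapped Irf7 (22.2 RPKM) and Irf8 (20.0 RPKM) while every Irf7 library lay above every Irf8 library, and Irf3 (11.7 RPKM) and Irf9 (9.67 RPKM) followed. The length given for Irf2 in the table is 2484 bases, against 7396 bases of merged exons in GENCODE M21, and its place in the order depends on that length.

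**Figure D3:**
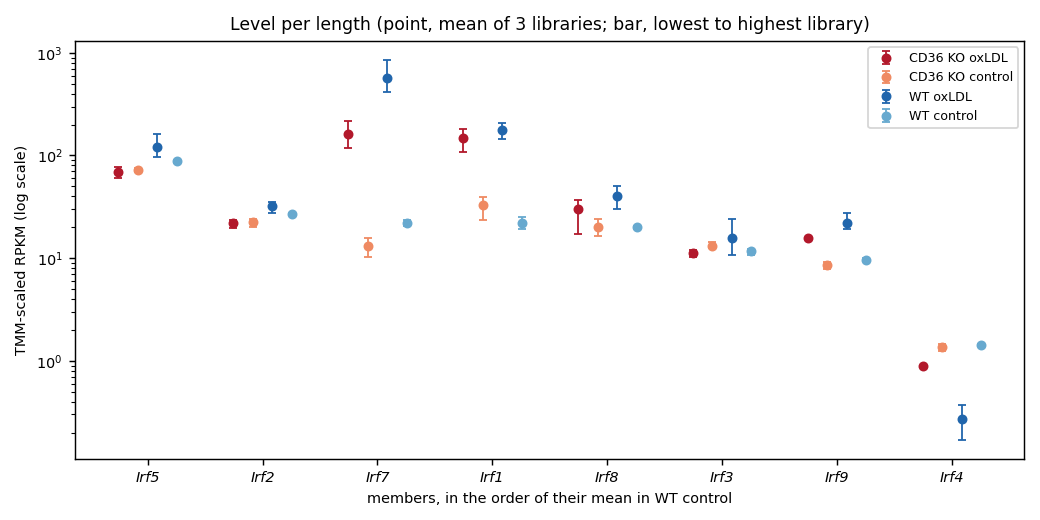
Level per length of each member (TMM-scaled RPKM, log axis) in the 4 groups. Points are means of 3 libraries and bars run from the lowest to the highest library. Irf5 is highest and Irf4 lowest in medium, and under oxLDL Irf7 leads with means of 162 RPKM in CD36 KO and 570 RPKM in WT.

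The messenger RNA of genes around the IRFs was set beside that of the members. Of 18 sensors, adaptors and kinases upstream of the IRFs, 9 rose in CD36 KO and 11 in WT, with medians of 0.55 in CD36 KO and 0.71 in WT on the log2 scale. Over all genes 11.6% rose and 15.7% fell in CD36 KO, and 18.1% rose and 18.6% fell in WT. These shares also apply to the responses of the lists that follow. Myd88, the adaptor of most Toll-like receptors, rose by a log2 of 1.43 ± 0.12 in CD36 KO (adjusted p = 4.5e-06) and 1.95 ± 0.12 in WT (adjusted p = 2.86e-07). Ddx58, the RNA sensor RIG-I, rose by 2.58 ± 0.20 in CD36 KO and 2.97 ± 0.21 in WT. Of 14 DNA-binding partners and regulators, 7 rose and 1 fell in CD36 KO, and 10 rose and 1 fell in WT. Stat2, the ISGF3 partner of IRF9, rose by 1.55 ± 0.16 in CD36 KO (adjusted p = 1.93e-05) and 2.27 ± 0.16 in WT (adjusted p = 7.97e-07). Tnfaip3, the inhibitor A20, rose by 2.76 ± 0.17 in CD36 KO and 2.34 ± 0.17 in WT.

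Messenger RNA of the type I interferon genes in the list was scarce at 8 h. Ifna1, Ifna4 and Ifna5 were at 0 in all 12 libraries, Ifna2 was above 0 in WT oxLDL alone (at most 0.0553 CPM), and Ifnb1 had at most 0.025 CPM in any CD36 KO oxLDL library and 0.221 CPM in any WT oxLDL library, with 0 in all medium libraries. Ifng, the interferon that induces IRF1 and IRF8, averaged 3.17 ± 1.75 CPM in CD36 KO oxLDL and 0.140 ± 0.121 CPM in CD36 KO medium, against 7.18 ± 2.33 CPM in WT oxLDL and 0.0159 ± 0.0138 CPM in WT medium (SD, n = 3 each), and its genotype difference under oxLDL did not pass the test (log2 -1.18 ± 0.50, adjusted p = 0.118). Of the 5 tested genes among 10 ligands and receptors, 4 rose and 1 (Ifngr1) fell in each genotype. Ifnar1, a chain of the type I interferon receptor, rose by 0.73 ± 0.10 in CD36 KO and 1.37 ± 0.10 in WT. Its partner chain Ifnar2 rose by 1.14 ± 0.12 in CD36 KO and 1.59 ± 0.12 in WT. All 4 receptor genes were lower in CD36 KO under oxLDL, with log2 values from -0.70 to -0.57, and 1 of them passed with only the groups compared in the fit. Ifngr1, a chain of the interferon-gamma receptor, was lower in CD36 KO in medium as well (log2 -0.55 ± 0.11, adjusted p = 0.00783).

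All 6 tested genes tied to IRF3 and IRF7 rose in both genotypes, with medians of 5.76 in CD36 KO and 6.03 in WT. Isg15, a ubiquitin-like antiviral protein, rose by 6.03 ± 0.35 in CD36 KO (adjusted p = 2.95e-07) and 6.5 ± 0.36 in WT (adjusted p = 1.2e-07), and Ifit1, which binds foreign RNA ends, by 5.82 ± 0.32 in CD36 KO and 5.56 ± 0.31 in WT. All 13 genes tied to ISGF3 rose in both genotypes, with medians of 2.64 in CD36 KO and 3.14 in WT. Mx2, a dynamin-like antiviral GTPase, rose by 4.30 ± 0.19 in CD36 KO and 5.28 ± 0.19 in WT, and Oasl2, an oligoadenylate synthetase-like protein, by 3.09 ± 0.17 in CD36 KO and 3.33 ± 0.17 in WT. Of 16 genes tied to IRF1 and IRF8, 14 rose in CD36 KO and 15 in WT. Cd274, the checkpoint ligand PD-L1, rose by 2.45 ± 0.21 in CD36 KO and 3.25 ± 0.21 in WT, and Il12a, the p35 subunit of interleukin-12, by 9.64 ± 0.48 in CD36 KO and 8.32 ± 0.45 in WT. The Il12a rises start close to 0, at means of 0.0312 CPM in CD36 KO medium and 0.0555 CPM in WT medium. The lowest library of each medium group was at 0. Of 6 cytokine genes tied to IRF5, Il12a among them, 6 rose in CD36 KO and 5 in WT. Tnf rose by 6.54 ± 0.24 in CD36 KO and 6.56 ± 0.24 in WT.

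Between genotypes under oxLDL the calls in most of these lists lay on 1 side. Lower in CD36 KO were 9 of 13 genes tied to ISGF3 (median -1.06), 9 of 16 tied to IRF1 and IRF8 (median -0.76), 2 of 6 tied to IRF3 and IRF7 (median -0.79), 4 of 14 partners and 5 of 18 upstream genes, and none of these lists had a gene that was higher. Mx2 was lower by a log2 of -1.25 ± 0.16 (adjusted p = 0.000501), Isg15 by -1.13 ± 0.28 (adjusted p = 0.0154) and Stat2 by -0.55 ± 0.15 (adjusted p = 0.0248). Isg15 missed the threshold without CD36 KO oxLDL replicate 1 or 2 (adjusted p of 0.0651 and 0.0699), and Stat2 without any 1 of the CD36 KO oxLDL replicates or without WT oxLDL replicate 2 or 3 (adjusted p from 0.055 to 0.0866). The genes tied to IRF5 differed in direction: 2 of 6 were higher in CD36 KO, Il6 by a log2 of 1.90 and Il23a by 2.66, and 0 were lower, and Tnf had a log2 of 0.05 ± 0.19. Il6 averaged 49.4 CPM in CD36 KO oxLDL and 13.2 CPM in WT oxLDL. Il23a was scarce, at 0.504 CPM in CD36 KO oxLDL and 0.0915 CPM in WT oxLDL. Over all genes the median was -0.03, with 9.86% lower and 11.7% higher in CD36 KO. Without WT oxLDL replicate 1 the calls were 12 of 13, 10 lower and 1 higher of 16, 4 of 6, 8 lower and 1 higher of 14, and 14 of 18, and 4 of 6 genes tied to IRF5 were higher. With only the groups compared in the fit they were 4, 0, 1, 0 and 1, and 1 tied to IRF5, and with upper-quartile scaling 5 tied to IRF1 and IRF8, 1 partner and 1 upstream gene passed. Over the 12 fits that left out 1 library the calls ranged from 5 to 12, 1 to 11, 1 to 4, 0 to 9 and 1 to 14, and from 2 to 4 for IRF5. For the difference between responses 0 genes of these 6 lists passed in the fit of all 12 libraries. Without WT oxLDL replicate 1 the count was 4 for ISGF3, 2 for IRF1 and IRF8, 5 for the partners and 6 for the upstream genes, and 0 for the other 2 lists.

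Genes tied to IRF4 in alternative activation moved apart. Of 6 genes, 2 rose and 2 fell in CD36 KO, and 2 rose and 1 fell in WT. The CD36 KO calls were 1 higher and 1 lower without CD36 KO medium replicate 1 or 2 or CD36 KO oxLDL replicate 3, and 2 higher and 0 lower without CD36 KO oxLDL replicate 1. Arg1, the arginase of alternatively activated macrophages, averaged 64.1 ± 10.2 CPM in CD36 KO oxLDL and 103 ± 7 CPM in CD36 KO medium, against 241 ± 56 CPM in WT oxLDL and 98.1 ± 5.8 CPM in WT medium (SD, n = 3 each). It fell in CD36 KO (log2 -0.68 ± 0.17, adjusted p = 0.0121), a call that was lost without CD36 KO oxLDL replicate 1 (log2 -0.55, adjusted p = 0.0518). It rose in WT (1.29 ± 0.17, adjusted p = 0.000133), and the difference between the responses of -1.97 ± 0.24 passed the test (adjusted p = 0.00452) and passed in 12 of 12 fits that left out 1 library. Under oxLDL, CD36 KO cells had more Irf4 than WT cells and less Arg1 (log2 -1.91 ± 0.18, adjusted p = 7.95e-05). Kdm6b, the histone demethylase upstream of Irf4, rose by 1.15 ± 0.23 in CD36 KO (adjusted p = 0.00298) and 1.06 ± 0.23 in WT (adjusted p = 0.00387).

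**Figure D4:**
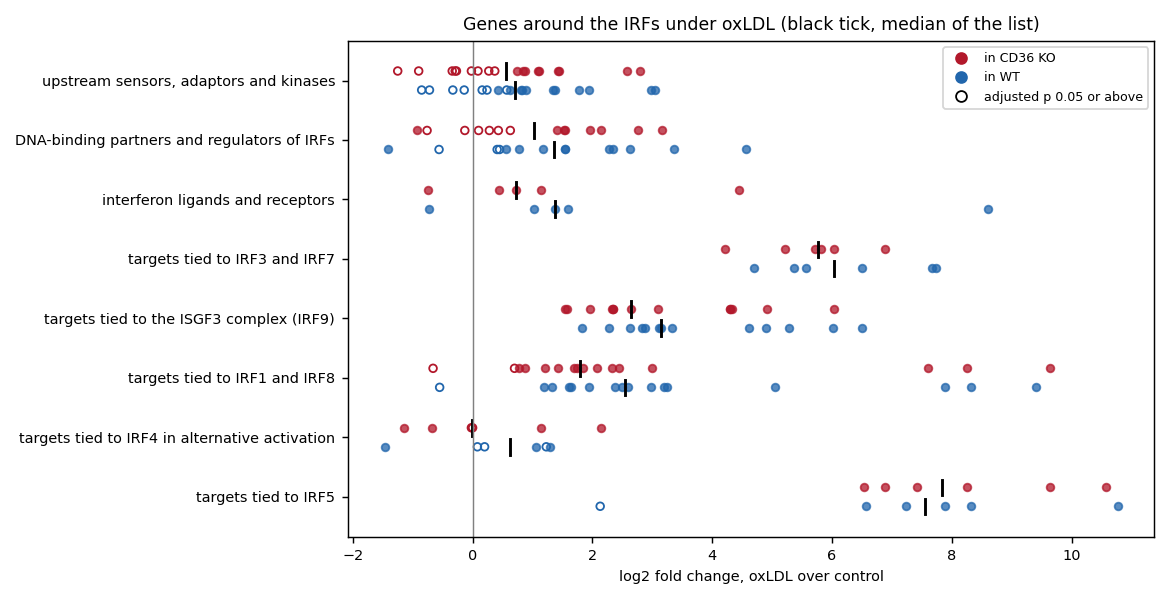
Log2 fold changes (oxLDL over control) of the tested genes of each list in CD36 KO and WT (filled, adjusted p under 0.05). Each point is a gene and the black tick is the median of the list. Targets tied to IRF3 and IRF7 and to IRF5 lie farthest right, with medians of 5.76 and 7.84 in CD36 KO and 6.03 and 7.56 in WT, and those tied to IRF4 have medians of -0.01 in CD36 KO and 0.63 in WT.

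Irf1, Irf7 and Irf9 varied together across libraries and Irf4 against them. Irf7 and Irf9 correlated at 0.99 over the 12 libraries, Irf1 with them at 0.93 and 0.92, and Irf4 against them at -0.91 and -0.92. Irf2 and Irf3 correlated at -0.01 with each other. These coefficients are Pearson's r of log2 CPM and mostly carry the contrast between oxLDL and medium and the group means, which the libraries share. The genes with the most similar pattern were Scarf1, a scavenger receptor, and Oas1a, a sensor of double-stranded RNA, for Irf7 (0.999 each), Igtp (0.998) and Ifi47 (0.996), both immunity-related GTPases, for Irf1, and Arl5c (0.995) and Ebi3 (0.993), a cytokine subunit, for Irf9. For Irf4 they were Bank1 (0.991), a scaffold protein known from B cells, and Tle1 (0.985), a corepressor. Irf5 was most like Cfp, which encodes properdin, and P2rx4, an ATP-gated channel (0.986 each), Irf2 most like Dram2 (0.979) and Coro2a (0.978), and Irf3 most like Ccdc142 (0.979) and Cln3 (0.977). Irf8 had the least close neighbours, Slc6a19 (0.937) and Il18bp (0.931), the inhibitor of interleukin-18.

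Reads of overlapping genes may be shared, since whether counting used the strand is not given in the sources used here. Tnpo3, on the opposite strand, shares 411 exon bases (14.1%) with Irf5. Shared exon bases were 135 for Irf1 with Gm17334, 88 for Irf3 with Bcl2l12, 45 for Irf7 with Phrf1 and 123 for Irf9 with Rnf31 on the same strand. Gm20388 spans Irf8 on the same strand, shares 0 exon bases with it and had 2510 to 7045 counts per library. Gm17334 had at most 3 counts in any library. Irf4 has no overlapping gene in that annotation, and Irf2 has 3 with 0 shared exon bases.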

How the data were processed

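The deposited table holds whole-number counts per gene in 12 libraries, without normalization, and RPKM values the authors made from them. The authors' deposited result tables hold log2 fold changes, log2 CPM, p-values and false discovery rates, and scores such as a dispersion and a likelihood ratio. Total RNA was isolated with an RNeasy kit, per the labels' protocols. Per the submitters' processing notes, the genome build was mm10 and FastQC was used. Not given in the sources used here were the aligner, counting program, annotation and strand setting.

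Counts were tested with edgeR 4.0.16 (R 4.3.3): filterByExpr (minimum count 10, minimum total 15, 16281 genes kept), TMM scaling, and a robust quasi-likelihood fit of 1 mean per group over all 12 libraries, with Benjamini-Hochberg adjustment over all genes and a threshold of 0.05. Standard errors (SE) were obtained from each log2 fold change and its F statistic. The prior count for log2 CPM was 2. RPKM was recomputed from the counts, the gene length in the table and the TMM library sizes, and the deposited RPKM served as an alternative. Differences are CD36 KO minus WT and oxLDL minus control. Each test was also tried with DESeq2 1.42.0, limma-voom (limma 3.58.1), DESeq2's size factors, upper-quartile scaling, no filter, only the groups compared, a replicate block, a gene-length trend removed, no robust estimation (added after seeing the data), and each library left out. The test was checked on simulated data.

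The 8 members and the lists of related genes and cell markers were chosen with earlier results of these data known, so list counts are descriptions and carry no test of the list. Named are all members, the 2 genes of each list with the smallest p in the WT response, genes called in the difference between responses, the 2 genes most like each member, and genes that overlap a member. Other genes named, such as Ifng, Ifnb1, Il6, Il23a and Ms4a1, were chosen after their values were seen. No library was left out of the fit reported, and no 2 libraries of a group were the same within counting noise (the chi-square of any 2, relative to its degrees of freedom, was 2.87 or more). Some items are not reported here. Gene identifiers of the table were found in GENCODE M21 for 42462 of 43346.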

Additional observations from a re-analysis of the deposited data

Results flagged for a closer look

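The difference between the oxLDL responses, CD36 KO minus WT, passed the test across all genes for 4 of the genes described here. Irf4 had a log2 difference of 1.75 (adjusted p = 0.0209, edgeR), from a smaller fall in CD36 KO than in WT. It passed in 3 of 12 fits that left out 1 library, with an adjusted p of up to 0.0944. Arg1 had -1.97 (adjusted p = 0.00452), with a rise in WT and a log2 of -0.68 in CD36 KO, whose call was lost without CD36 KO oxLDL replicate 1 (adjusted p = 0.0518). The Arg1 difference itself passed in 12 of 12 such fits. Among the macrophage markers, Timd4, a phosphatidylserine receptor of resident macrophages, had -2.44 (adjusted p = 0.00654) and passed in 12 of 12. Its level was 8.07 ± 1.97 CPM in CD36 KO oxLDL and 1.34 ± 0.22 CPM in CD36 KO medium, against 5.61 ± 0.66 CPM in WT oxLDL and 0.169 ± 0.019 CPM in WT medium (SD, n = 3 each). Fcgr1, the high-affinity IgG receptor, had -2.28 (adjusted p = 0.0226) and passed in 4 of 12, with an adjusted p of up to 0.0898. Its level was 98.2 ± 39.5 CPM in CD36 KO oxLDL and 83.1 ± 7.2 CPM in CD36 KO medium, against 841 ± 268 CPM in WT oxLDL and 147 ± 3 CPM in WT medium.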

How the results depend on the processing

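Rises of Irf1, Irf7 and Irf9 and the WT fall of Irf4 passed under every alternative and with every library left out, as did the lower Irf7 and higher Irf4 of CD36 KO under oxLDL. The lower Irf2 of CD36 KO under oxLDL passed with every library left out and was lost with only the groups compared. The other calls moved with single libraries, and the cause was not tested. The members called when 1 library was left out numbered 3 to 4 for oxLDL in CD36 KO, 4 to 6 for oxLDL in WT, 0 to 3 for CD36 KO against WT in medium, 3 to 5 under oxLDL and 0 to 1 for the difference between responses. With only the groups compared the members called were 3 in medium, with Irf2 at -0.27 (adjusted p = 0.00569), Irf5 at -0.27 (0.00249) and Irf7 at -0.74 (0.0174), and 2 under oxLDL, where the adjusted p of Irf2, Irf5 and Irf9 was 0.115, 0.121 and 0.222. Genes called with only the groups compared were 3687 of all tested for oxLDL in WT, 6684 for genotype in medium and 1191 for genotype under oxLDL, against 5980, 1823 and 3512. With single libraries left out they ranged from 3397 to 8315 for oxLDL in CD36 KO, 853 to 4870 for genotype in medium, 2068 to 6205 under oxLDL and 40 to 1158 for the difference between responses, against 109 in the fit reported, 535 with DESeq2 and 229 with the gene-length trend removed.

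Replicate numbers did not pair the libraries: of 18 pairs with the same number, deviations correlated at -0.399 to 0.357 and 2 pairs were above 0.1. With a replicate block 0 members and 44 genes passed for the difference between responses, with Irf4 at 1.77 (adjusted p = 0.0726), Irf4 in CD36 KO at -0.61 (adjusted p = 0.0662) and Irf9 between genotypes under oxLDL at -0.47 (adjusted p = 0.0551).

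Signs turned only for values that passed no test. Irf2 in CD36 KO was 0.04 with DESeq2, with its size factors and with the length trend removed, 0.03 with only the groups compared, and -0.09 to 0.04 with libraries left out. Irf5 in CD36 KO was 0.01 with DESeq2 and with its size factors, 0.03 with the length trend removed and -0.14 to 0.05 with libraries left out. Irf8 between genotypes in medium was -0.03 with DESeq2 and with its size factors, -0.11 with the length trend removed and -0.11 to 0.15 with libraries left out. Irf3 in WT was -0.02 to 0.61. The Irf4 fall in CD36 KO (adjusted p = 0.0669) and the Irf9 genotype difference under oxLDL (0.0525) also missed the threshold without the filter on low counts. Irf5 in WT passed with DESeq2 (0.50) and with the length trend removed (0.49), and Irf2 in WT with DESeq2 (0.30). Deposited RPKM moved 14 of 32 group means by more than 1 SD.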
